A study of Mus musculus with 4 samples.

Results

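The genes described here encode 10 proteins of glutathione, thioredoxin and peroxide defence: Slc7a11, Gclc, Gclm, Gsr, Txnrd1, Prdx1, Srxn1, Gpx1, Gpx4 and Nqo1. They were taken by symbol from 21981 genes in the deposited tables, and all 10 had a count in every library and passed the filter on low counts. RNA came from microglia, the resident macrophages of the brain, isolated from the untreated cerebral cortex of mice at embryonic day 16. The control group (control 1 and control 6) was Bach1 fl/fl, a genotype in which Bach1 is flanked by recombination sites. The other group (cKO 2 and cKO 5) was Bach1 cKO, named in the series text after a driver called Cx3, which the labels do not describe further. Each group thus had 2 libraries, and no others of the study were used here. The labels do not tie a library to an animal. P-values therefore measure only the spread between these libraries, which includes any technical spread.

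BACH1 is a heme-binding repressor that pairs with small MAF proteins at antioxidant response elements, the same DNA motifs that the activator NRF2 uses. Glutathione is made from cysteine that enters the cell as cystine, and it is the cofactor with which glutathione peroxidases reduce peroxides. The thioredoxin system runs in parallel and keeps the peroxiredoxins reduced. Both systems draw on NADPH, and several of their genes are textbook NRF2 targets. Microglia, like other phagocytes, make oxidants and rely on these systems to withstand them.

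Because the genotype concerns a factor that binds at such elements, the letters around the gene starts were searched for them first. Promoter windows of 300 bases (250 before to 50 after an annotated start, RefSeq, GRCm38.p6) were found by symbol for 8 of the 10 genes; Gclc and Gsr had none in that table. The motifs searched on both strands were TGACNNNGC, the core of the antioxidant response element, and GCTGACTCA, a variant of the element bound by MAF proteins, and a site can hold overlapping letters of both. The core occurred in 12.4% of all 32851 windows and the variant in 0.414%, or either in 12.7%. A match was found for 4 of the 8 genes with a window (14.3% of all 27025 genes in the table had one). The windows of Slc7a11, Gpx1, Gpx4 and Nqo1 held neither motif, which says only that these letters are not in those 300 bases.

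The matched stretches are shown 5′ to 3′ along the gene, because they let the letters at each start be compared, with the matched motif in capitals. Gclm is given with all 250 bases before its start (chr3:122245307-122245556, plus strand), and the match begins 134 bases before it. For Txnrd1 (chr10:82859084-82859152, plus strand) the match belongs to the second of 3 annotated starts, 92 bases before it. Those of Prdx1 (chr4:116685436-116685504, plus strand) and Srxn1 (chr2:152105449-152105517, plus strand) begin 133 and 45 bases before the start, and Srxn1 holds a further core match after its start that is not shown. All 4 matches read on the opposite strand to the gene. The one of Srxn1 is the MAF variant and the others are the core.
Gclm: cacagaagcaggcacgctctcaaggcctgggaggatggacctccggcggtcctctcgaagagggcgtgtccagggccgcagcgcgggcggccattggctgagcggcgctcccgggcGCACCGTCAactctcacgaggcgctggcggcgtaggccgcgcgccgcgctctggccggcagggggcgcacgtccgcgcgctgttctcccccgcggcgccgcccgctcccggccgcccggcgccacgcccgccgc
Txnrd1: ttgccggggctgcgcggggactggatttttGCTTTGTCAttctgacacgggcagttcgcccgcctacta
Prdx1: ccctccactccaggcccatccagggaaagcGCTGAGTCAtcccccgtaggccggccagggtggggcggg
Srxn1: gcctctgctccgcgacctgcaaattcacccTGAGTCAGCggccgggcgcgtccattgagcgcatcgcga
Printed along the motif, the matched letters are TGACGGTGC in Gclm, TGACAAAGC in Txnrd1 and TGACTCAGC in Prdx1. These matches are a description of the sequence and carry no measurement of binding.

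Library totals ran from 17233115 to 19305078 reads, so that 3 reads equal 0.155 to 0.174 CPM, the count divided by its library total and put on one scale for all libraries, a floor that covers counting error only. The cell type of the labels was checked against 24 microglial markers, all with reads in every library. They summed to 32594 CPM for control 1, 51649 for control 6, 12071 for cKO 2 and 46297 for cKO 5. cKO 2 stood apart in the opposite way for 20 markers of cortical excitatory neurons, with 18036 CPM against 5930, 2325 and 2164 CPM in control 1, control 6 and cKO 5. Markers of endothelium (12 genes) summed to 5959 CPM for control 1, 1292 for control 6, 4434 for cKO 2 and 856 for cKO 5, and those of border-associated macrophages (11 genes), in the same order, to 1276, 1605, 599 and 2292 CPM. Sums ran from 186 to 1435 CPM for radial glia and astrocytes, 282 to 3872 for pericytes and fibroblasts, 74.8 to 257 for monocytes and neutrophils and 112 to 308 for erythroid cells. Mpo, on the list of monocytes and neutrophils, was at 0 in control 6 and cKO 2. The astrocyte gene Gfap and the fibroblast gene Col1a1 were at 0 in cKO 5, and the fibroblast gene Dcn in control 6. All microglial, neuronal and endothelial markers were above 0 in every library, whereas the border macrophage gene Cd163 had no reads in control 6. Xist, transcribed from the inactive X chromosome, was read in control 1 and cKO 5 and the Y-linked gene Ddx3y in control 6 and cKO 2, so each genotype joined a library of either kind. Xist had 0 reads in control 6 and cKO 2, and Ddx3y had 0 in control 1 and cKO 5. The libraries of a genotype therefore did not come from the same animal. Whether each came from an embryo or a pool is not in the labels. The part of these shifts in the values below was not tested except where a value is given.

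In the cKO libraries, 8 of the 10 genes had a positive log2 fold change, beside 52.8% of all genes tested, and none passed the threshold. Txnrd1, Slc7a11 and Nqo1 were higher in both cKO libraries than in both controls. Gclm, Gsr, Prdx1, Srxn1 and Gpx1 were highest in cKO 5 and near or below the control values in cKO 2, while Gclc was lowest in cKO 2 and highest in control 6. Gpx4 differed little between any libraries. In edgeR's quasi-likelihood test, 0 of 10 genes were past an adjusted p of 0.05 (each 0.9997), as were 0 of all 15951 genes tested (0%). Before adjustment, 49 of all genes had a p under 0.05, with 0 of the 10 among them, and DESeq2 and limma-voom also called 0 genes after adjustment, with 74 and 37 unadjusted. The median log2 fold change was 0.39 over the 10 genes and 0.03 over all genes tested. That direction rested on cKO 5: without it, 3 of the 10 were positive and their median was −0.48, with 0.03 over all genes. A bulk library cannot tell fewer cells of a type from less RNA per cell, and this applies to every level given here.

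**Figure D1:**
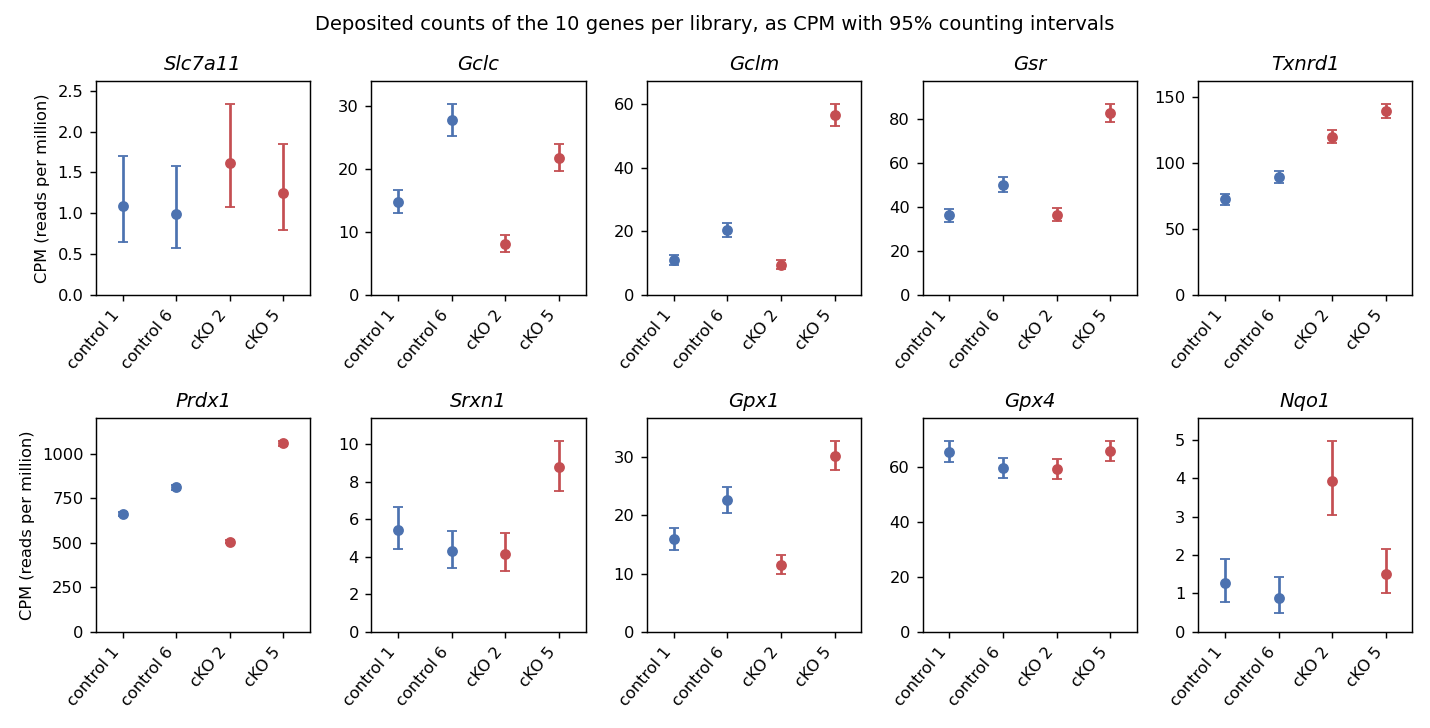
CPM of each gene (y axes in CPM, each starting at 0) in control 1 and control 6 (blue) and cKO 2 and cKO 5 (red), with exact Poisson 95% intervals that cover counting error only. Txnrd1 lies higher in both red points than in both blue ones, at 119.9 and 139 CPM against 72.4 and 89.3, whereas Gclm reaches 56.5 CPM in cKO 5 alone.

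Cystine import and glutathione synthesis came first. Slc7a11 (ENSMUSG00000027737, chromosome 3, 49892526 to 50443614, minus strand), the cystine-glutamate exchanger, had 19 and 17 reads in the controls (1.09 and 0.986 CPM) and 28 and 24 reads in cKO 2 and cKO 5 (1.62 and 1.24 CPM). Both cKO values were above both control values, but each counting interval overlapped the others, so the difference was not detectable at this depth. The log2 fold change was 0.37 ± 0.84 (SE). Slc3a2, which encodes the heavy chain that the exchanger shares with other amino acid transporters, was far more abundant: 666 CPM for control 1, 423 for control 6, 518 for cKO 2 and 387 for cKO 5. Its CPM overlapped between the groups, and on TMM-scaled CPM both cKO libraries were below both controls, with a log2 fold change of −0.34 ± 0.39.

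Gclc and Gclm encode the catalytic and the modifier subunit of glutamate-cysteine ligase, the rate-limiting enzyme of glutathione synthesis. Gclc (ENSMUSG00000032350, chromosome 9, 77754535 to 77794485, plus strand) stood at 14.8 CPM for control 1, 27.7 for control 6, 8.15 for cKO 2 and 21.8 for cKO 5. The groups overlapped, with cKO 2 low and cKO 5 between the controls, and the log2 fold change was −0.53 ± 0.77, turning to 0.21 when libraries were scaled on the microglial markers. Gclm (ENSMUSG00000028124, chromosome 3, 122245557 to 122270732, plus strand) gave 193 reads for control 1 and 350 for control 6, that is 11.05 and 20.3 CPM. For cKO 2 it gave 165 reads (9.53 CPM) and for cKO 5 1091 reads (56.5 CPM). The highest and lowest library differed 5.93-fold, the widest range of the 10 genes, and both extremes were cKO libraries. Mean CPM was 15.7 ± 6.55 for control and 33.0 ± 33.2 for cKO (SD, n = 2 each), and the log2 fold change was 1.09 ± 1.04. Without cKO 5 it was −0.99, without cKO 2 it was 1.93, and with a term for libraries read for Xist or for Ddx3y it was 0.56 ± 1.37. A share of 4.71% of Gclm's exon bases lies opposite the transcript Gm17494, which itself had 4 to 10 reads per library. A further overlap, of 3.88%, is with the pseudogene Gm6061 on the same strand. Transcripts of other genes hold 4.58% of the 50-base stretches in Gclm transcripts.

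Because a ratio of counts inside a library does not depend on how libraries are scaled, the subunits were also compared directly. Control 1 and control 6 had nearly the same Gclm to Gclc ratio, 0.748 (95% exact counting interval 0.618 to 0.905) and 0.732 (0.636 to 0.842). In cKO 2 the ratio was 1.17 (0.929 to 1.48) and in cKO 5 it was 2.60 (2.32 to 2.91). Both cKO values thus lay above the intervals of both controls, and they also differed from each other. The mean log2 ratio was −0.43 in control and 0.80 in cKO, a difference of 1.24, with a two-sided exact permutation p of 0.333, the smallest that 2 against 2 libraries can give. Any ratio with separated groups gives that p. The other ratios formed (Gpx4 to Gpx1, Srxn1 to Prdx1 and Gsr to Txnrd1) overlapped between the groups. How many pairs among all genes separate in this way was not computed. Beside the ratio in cKO 5 stood marker sums that differed from those of control 6 by list: 46297 against 51649 CPM for microglia, 2164 against 2325 for excitatory neurons, 2292 against 1605 for border macrophages, 856 against 1292 for endothelium and 282 against 749.7 for pericytes and fibroblasts. In cKO 2 it stood beside the low microglial and high neuronal sums given above, and the part of any of these in the ratio was not tested.

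**Figure D2:**
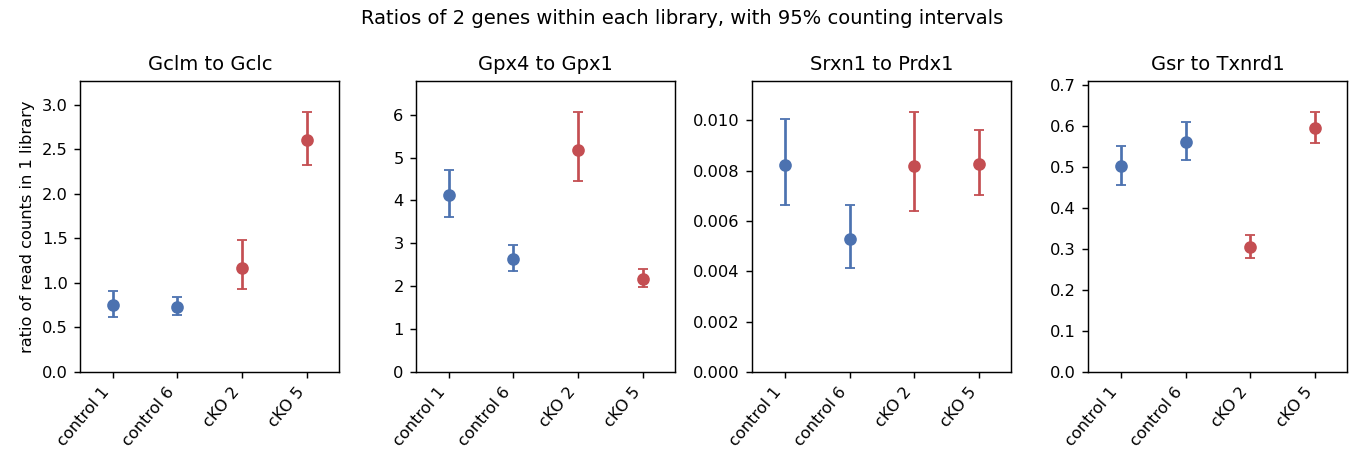
Ratio of the read counts of 2 genes inside each library (y axes start at 0), with exact 95% counting intervals; blue marks control and red cKO. The Gclm to Gclc ratio is 0.748 and 0.732 for the controls, 1.17 for cKO 2 and 2.60 for cKO 5, while the other ratios overlap between the groups.

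Gsr (ENSMUSG00000031584, chromosome 8, 33652523 to 33698163, plus strand), the glutathione reductase that returns oxidised glutathione to its reduced form, ran at 36.2 and 50.1 CPM across the controls, beside 36.6 CPM (cKO 2) and 82.8 CPM (cKO 5). cKO 5 was above both controls and cKO 2 was level with control 1, so the groups overlapped. The log2 fold change was 0.44 ± 0.61 with all libraries and −0.50 without cKO 5. Gss, which joins glycine in the last step of glutathione synthesis, ran at 6.70 and 5.63 CPM across the controls, beside 6.64 CPM (cKO 2) and 6.79 CPM (cKO 5).

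In the thioredoxin branch, Txnrd1 was the gene that separated the groups on every scale tried. The scales rest on the same counts and are not independent checks. The share of all genes that separated on every one of them was not computed. Txnrd1 (ENSMUSG00000020250, chromosome 10, 82833951 to 82897712, plus strand) encodes the cytosolic selenoenzyme that reduces thioredoxin with NADPH. Its reads numbered 1265 and 1539 in the controls (72.4 and 89.3 CPM), 2076 in cKO 2 (119.9 CPM) and 2688 in cKO 5 (139 CPM). On CPM, both cKO values were above both control values and their counting intervals did not touch. Mean CPM was 80.9 ± 11.95 for control and 129.6 ± 13.7 for cKO (SD, n = 2 each), a ratio of 1.60. The gap was narrower once TMM factors, which adjust for RNA composition, were applied: 97.4 for control 6 and 104.5 for cKO 2. Counting intervals were not computed on that scale, so a separation beyond counting error is stated for CPM only. The log2 fold change was 0.61 ± 0.37, with an unadjusted p of 0.170, the smallest of the 10 genes, and an adjusted p of 0.9997 in edgeR. The fit gave 0.31 without cKO 5 and 0.39 without control 1.

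Of the 10 genes, 3 had both cKO libraries above both controls on CPM divided by TMM factors, namely Slc7a11, Txnrd1 and Nqo1, and none had both below. Among all genes tested the shares were 8.33% above and 7.64% below. With libraries scaled on the summed microglial markers, 6 of the 10 had both cKO values above the controls (Gclm, Gsr, Txnrd1, Prdx1, Srxn1 and Gpx1), beside 12.1% of all genes. Under that scaling the median log2 fold change went from 0.03 to 1.22 over all genes and from 0.39 to 1.15 over the 10 genes, so that 4 of them (Gclm, Txnrd1, Slc7a11 and Nqo1) were above the median of all genes. Slc7a11 and Nqo1 no longer separated the groups there. The summed markers include Cx3cr1, at 4333 and 5158 CPM in control 1 and control 6 against 747 in cKO 2 and 2756 in cKO 5. On TMM-scaled CPM it alone of the 24 had both cKO libraries below both controls. It also enters the geometric mean of the markers used below. Its part in these values, and any tie to the driver called Cx3, was not tested.

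Prdx1 (ENSMUSG00000028691, chromosome 4, 116685544 to 116700822, plus strand), a peroxiredoxin that reduces hydrogen peroxide, was the most abundant of the 10. It measured 662 and 813 CPM in control 1 and control 6, with cKO 2 at 508 and cKO 5 at 1060.4 CPM. The cKO libraries held both the lowest and the highest value, and the log2 fold change was 0.06 ± 0.62. A processed pseudogene shares sequence with it: of the 50-base stretches of its annotated transcripts, 8.81% also occur in transcripts of other genes, so a small part of its count is uncertain. Srxn1 (ENSMUSG00000032802, chromosome 2, 152105516 to 152111376, plus strand), the sulfiredoxin that repairs over-oxidised peroxiredoxins, stood at 5.44 CPM for control 1, 4.29 for control 6, 4.16 for cKO 2 and 8.75 for cKO 5. cKO 2 equalled control 6 within counting error while cKO 5 was above both, and the log2 fold change was 0.40 ± 0.72. Reads of Srxn1 per read of Prdx1 were 0.00822 for control 1, 0.00528 for control 6, 0.00819 for cKO 2 and 0.00826 for cKO 5. Control 6 was the low one, and control 1 and both cKO libraries had overlapping intervals.

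The ratio of Gsr to Txnrd1, the reductases of the glutathione and the thioredoxin branch, was 0.5004 and 0.561 in the controls and 0.595 in cKO 5. In cKO 2 it was 0.305 (95% interval 0.279 to 0.334), below the other libraries. The groups overlapped, with a two-sided exact permutation p of 1.0. Both Gclm and Gsr were low against Txnrd1 in cKO 2, while all 3 were above both controls in cKO 5.

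Among the glutathione peroxidases, which are selenoenzymes, Gpx1 had the library order of Prdx1 and Gpx4 a narrow range. Gpx1 (ENSMUSG00000063856, chromosome 9, 108338903 to 108340343, plus strand), the main cytosolic form, ran at 15.9 and 22.6 CPM across the controls, beside 11.4 CPM (cKO 2) and 30.3 CPM (cKO 5), again with the cKO libraries at both ends. Its log2 fold change was 0.10 ± 0.70, and −1.01 without cKO 5. Gpx4 (ENSMUSG00000075706, chromosome 10, 80047166 to 80056439, plus strand), which reduces lipid hydroperoxides in membranes and guards against ferroptosis, measured 65.3 and 59.5 CPM in control 1 and control 6, with cKO 2 at 59.2 and cKO 5 at 65.7 CPM. Its highest and lowest library differed 1.11-fold, the narrowest range of the 10, and the log2 fold change was −0.06 ± 0.32, with 0.002 on library totals only and 1.00 on the microglial markers. Of the 50-base stretches in Gpx4 transcripts, 34.7% also occur in other annotated transcripts. Gpx4-ps2, which shares most of them, had 367 to 476 reads per library, so the Gpx4 count is uncertain. The Gpx4 to Gpx1 ratio came to 4.12 and 2.64 for the controls, 5.18 for cKO 2 and 2.17 for cKO 5, so the groups overlapped (two-sided exact permutation p = 1.0).

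Nqo1 (ENSMUSG00000003849, chromosome 8, 107388225 to 107403206, minus strand), a quinone reductase and a standard reporter gene of NRF2 activity, was scarce. The controls gave 22 and 15 reads (1.26 and 0.870 CPM), against 68 reads in cKO 2 (3.93 CPM, counting interval 3.05 to 4.98) and 29 reads in cKO 5 (1.502 CPM, interval 1.01 to 2.16). cKO 2 was above both controls beyond counting error. cKO 5 was also above them in value, but its interval overlapped theirs. The log2 fold change was 1.22 ± 0.86, and it was 0.61 without cKO 2. The direction of Nqo1 was thus the same in both cKO libraries while its size was set by cKO 2, the library with the high neuronal sum, whose part in it was not tested.

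**Figure D3:**
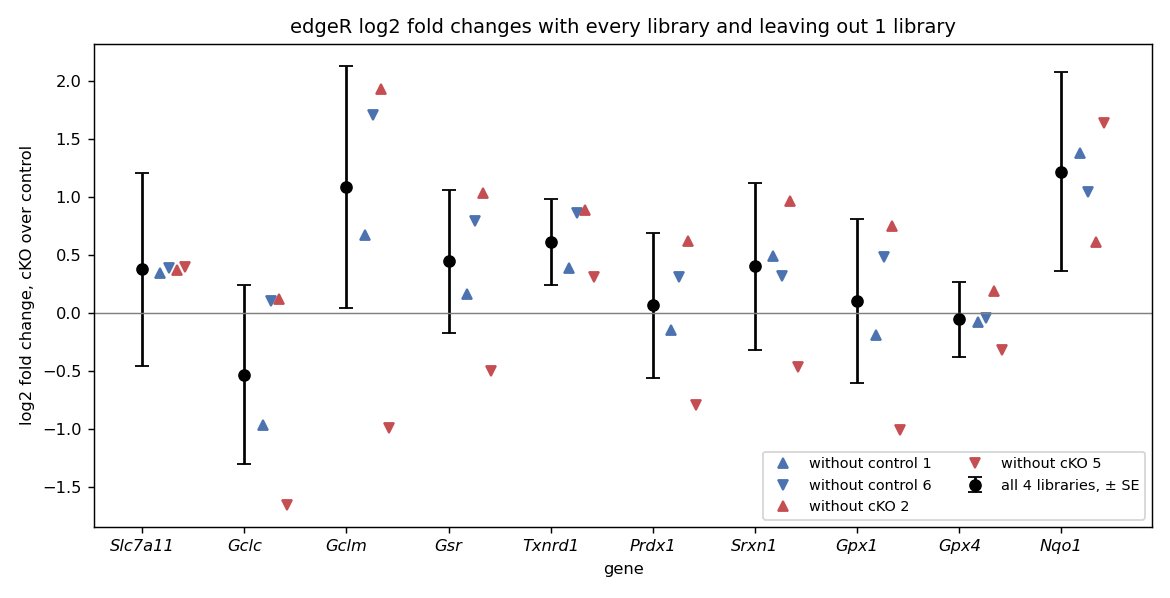
edgeR log2 fold change of each gene, cKO over control (y axis), with all 4 libraries (black, ± SE) and with 1 library left out (coloured triangles). Txnrd1, Slc7a11 and Nqo1 stay above 0 in all 5 fits, and Gclm goes from 1.93 without cKO 2 to −0.99 without cKO 5. Those that stay above 0 had both cKO libraries above both controls, so leaving out 1 library could hardly turn their sign.

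Across the libraries the 10 genes did not all share a pattern, but most were highest in cKO 5 and most were lowest in cKO 2. None was lowest in cKO 5, where 35.5% of all genes tested were lowest. cKO 5 held the highest CPM of 7 genes (Gclm, Gsr, Txnrd1, Prdx1, Srxn1, Gpx1 and Gpx4), where 20.1% of all genes tested were highest. cKO 2 held the lowest CPM of 6 genes, beside 25.2% of all genes tested, and it held the highest of Slc7a11 and Nqo1. Some of these ranks lay within counting error. The interval of Gpx4 in cKO 5 overlapped that in control 1. In cKO 2 the intervals of Gclm, Srxn1 and Gpx4 overlapped those of the next library up. The shares of all genes were counted by rank as well, without regard to counting error. Gclm, Prdx1 and Gpx1 had the same order from cKO 2 through control 1 and control 6 to cKO 5, an order found in 8.92% of all genes tested. Gclc had the order of the summed microglial markers, rising from cKO 2 through control 1 and cKO 5 to control 6 (6.90% of genes tested), and Slc7a11 and Nqo1 ran from control 6 through control 1 and cKO 5 to cKO 2 (3.43%).

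Set against the geometric mean of the 24 microglial markers in the same library, Gclc came to 2.49 and 2.86% for the controls, 3.43% for cKO 2 and 2.49% for cKO 5. Its 3.41-fold range in CPM was therefore reduced to a narrow one, with the groups overlapping. Gclm came to 1.86 and 2.10% for the controls, 4.01% for cKO 2 and 6.46% for cKO 5, so both cKO libraries were above both controls on this measure. Txnrd1 came to 12.2 and 9.22%, 50.5% and 15.9% in the same order. For Gclm, Gsr, Txnrd1, Prdx1, Srxn1 and Gpx1 the two-sided exact permutation p was 0.333, the smallest possible, and it was 0.667 or 1.0 for the other 4. The share of all genes separating on this measure was not computed. The geometric mean ran at 592.5 and 968.9 CPM across the controls, beside 237.7 CPM (cKO 2) and 874.4 CPM (cKO 5). A low denominator raises every gene, and Gpx4, of narrow range in CPM, rose by a mean log2 of 0.734 in cKO. Prdx1 (0.733) and Gpx1 (0.709) did not exceed that, nor did Gclc (0.129). Slc7a11, Gclm, Gsr, Txnrd1, Srxn1 and Nqo1 did (1.053 to 1.947). Reads from cells other than microglia also enter these percentages, and cKO 2 was the highest library for every one of the 10 genes but Gclm. What share of the reads in cKO 2 came from other cells was not tested.

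**Figure D4:**
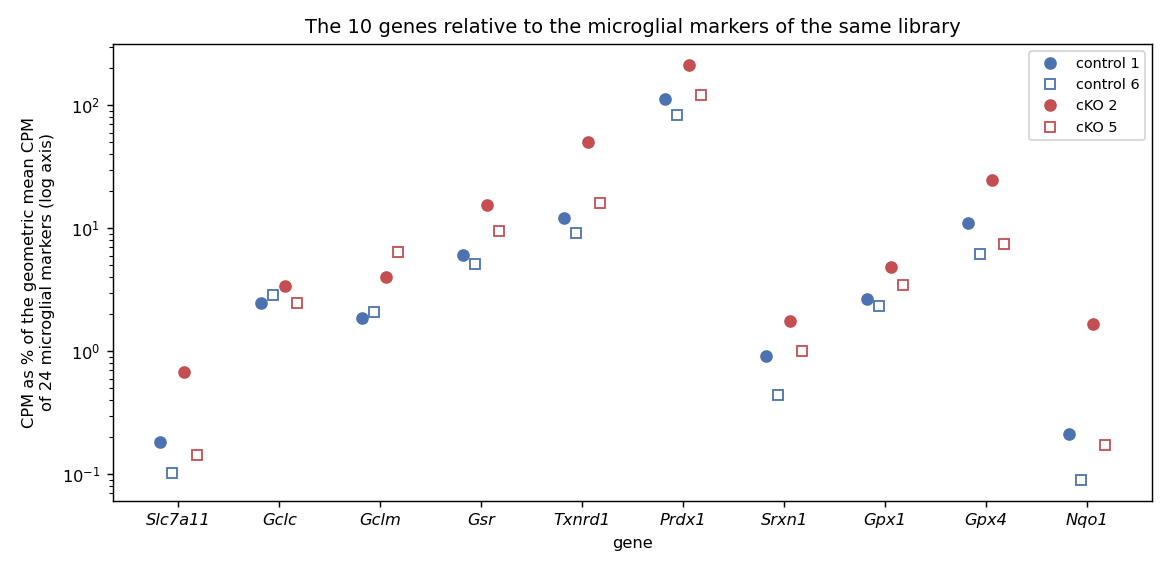
CPM of each gene as a percentage of the geometric mean CPM of 24 microglial markers in the same library (log axis); blue marks control, red cKO, filled circles control 1 and cKO 2, open squares control 6 and cKO 5. Gclc lies between 2.49% and 3.43% in all libraries, and Gclm is 4.01% and 6.46% in cKO against 1.86% and 2.10% in the controls.

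Levels between genes were compared per kilobase of merged exons in GENCODE M21. The mean over the 4 libraries was 250.03 CPM per kb for Prdx1, 36.2 for Gpx4, 18.7 for Gsr, 14.8 for Txnrd1 and 13.9 for Gpx1. It was 4.81 for Gclc, 3.87 for Gclm, 2.01 for Srxn1, 1.22 for Nqo1 and 0.0886 for Slc7a11. Prdx1 and Slc7a11 did not overlap with their neighbours in any library, and Gpx4 was above Gsr. Across the libraries, Gsr, Txnrd1 and Gpx1 overlapped each other on this scale, as did Gclc, Gclm, Srxn1 and Nqo1. In cKO 2, Nqo1 (2.53) was above Gclc (2.16) and Gclm (1.52). Gclm in cKO 5 (8.98) was above Gpx1 in cKO 2 (7.94).

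The authors' deposited tables compare 1 cKO with 1 control library each, so a library enters 2 of them and the tables are not independent. Their calls need both a p under 0.05 and a change of 1 or more on the log2 scale. In the authors' deposited table of cKO 5 against control 1, Gclm (5.12-fold) and Gsr (2.28-fold) were called higher and none of the 10 lower. Of all genes in it, 8.79% were called higher and 26.0% lower. For cKO 5 against control 6, the authors' deposited table called Gclm (2.78-fold) and Srxn1 (2.04-fold) higher and none lower, beside 9.23% and 11.4% of all genes. For cKO 2 against control 1 it called Nqo1 (3.12-fold) higher and none lower, beside 20% and 11.6%. For cKO 2 against control 6 it called Nqo1 (4.51-fold) higher and Gclc (0.294-fold) and Gclm (0.469-fold) lower, beside 33.7% and 13.4%. Gclm was therefore called in opposite directions for cKO 5 and cKO 2 against the same control 6. Txnrd1 was called in none of the authors' deposited tables, with fold changes of 1.34 to 1.92. The libraries alike in Xist and Ddx3y are compared in the tables of cKO 5 with control 1 and of cKO 2 with control 6, where the authors' deposited fold change was 1.92 and 1.34 for Txnrd1 and 5.12 and 0.469 for Gclm.

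The wider redox pathway was read from 7 lists of 118 symbols, of which 101 genes were tested. None passed the threshold in edgeR, 59 had positive and 42 negative log2 fold changes, and the median was 0.05, near the 0.03 of all genes. Of all genes tested 52.8% were positive, a share that also belongs beside the counts of each list below. Both cKO libraries were above both controls for 10 of the 101 and below for 5, against 8.33% and 7.64% of all genes. The list medians lay between −0.13 for selenoprotein synthesis and 0.08 for glutathione synthesis and turnover.

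In the thioredoxin and peroxiredoxin list, 12 of 20 tested genes were positive and 8 negative. Txn1, the cytosolic thioredoxin gene, stood at 37.5 CPM for control 1, 32.5 for control 6, 51.9 for cKO 2 and 44.5 for cKO 5, so that both cKO values were above both controls, as for its reductase gene Txnrd1 (log2 fold change 0.39 ± 0.29). The thioredoxin inhibitor gene Txnip ran at 333 and 242 CPM across the controls, beside 155 CPM (cKO 2) and 297 CPM (cKO 5), with overlap. The mitochondrial reductase gene Txnrd2 stood at 19.4 CPM for control 1, 19.7 for control 6, 15.3 for cKO 2 and 36.2 for cKO 5, high in cKO 5 like Gsr. Among other peroxiredoxins, Prdx2, abundant in neurons and red cells, measured 428 and 290 CPM in control 1 and control 6, with cKO 2 at 929 and cKO 5 at 288 CPM, the opposite arrangement to Prdx1. Prdx6 had 147 and 103 CPM against 224 and 116 CPM. The methionine sulfoxide reductase gene Msra had the largest log2 fold change of this list at 1.01 ± 0.70, with 21.3 CPM in cKO 2 against 4.82 to 7.61 CPM elsewhere.

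Among 10 tested superoxide and peroxide enzymes, 7 were positive and 3 negative with a median of 0.05. Sod2, the mitochondrial superoxide dismutase gene, measured 110.7 and 94.9 CPM in control 1 and control 6, with cKO 2 at 126.5 and cKO 5 at 111.9 CPM, a log2 fold change of 0.14 ± 0.29. Sod1, the cytosolic form, measured 3.55 and 1.74 CPM in control 1 and control 6, with cKO 2 at 7.05 and cKO 5 at 3.21 CPM. The catalase gene Cat had 443 and 235 CPM in the controls against 370 and 224 CPM. The extracellular form Sod3, at 59.2, 9.69, 41.5 and 3.73 CPM in the library order used above, followed the arrangement of the endothelial markers.

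In glutathione synthesis and turnover, 12 of 20 tested genes were positive and 8 negative. Ggct, which degrades gamma-glutamyl peptides, stood at 4.58 CPM for control 1, 4.93 for control 6, 9.30 for cKO 2 and 6.32 for cKO 5. Ggt7 and Cbs were high in cKO 2 (55.7 and 47.1 CPM) and at 5.34 and 4.82 CPM in cKO 5. Of 24 glutathione transferase genes 15 were tested, 9 of them positive and 6 negative. Gstp1 was lower in both cKO libraries (6.99 and 5.85 CPM against 9.67 and 8.53 CPM), and 33.7% of its 50-base stretches are shared with other transcripts, mostly of Gstp2. Hpgds, a prostaglandin synthase of this family found in microglia, was low in cKO 2 alone (274 CPM, with 717, 1187 and 1130 CPM elsewhere). Of the NADPH suppliers, Idh1 ran at 108 and 86.8 CPM across the controls, beside 178 CPM (cKO 2) and 91.3 CPM (cKO 5), and 10 of 16 list members were positive with a median of 0.05. Selenoprotein synthesis had 3 of 11 members positive, and Selenop, the selenium carrier gene, stood at 4077 CPM for control 1, 4864 for control 6, 1795 for cKO 2 and 5218 for cKO 5. In the list of other quinone and carbonyl reductases, 6 of 9 tested genes were positive. Ugdh was higher in both cKO libraries (44.9 and 46.8 CPM against 34.8 and 33.7 CPM) and Ephx1 was low in cKO 2 (15.7 CPM, with 32.7 to 38.0 CPM elsewhere). Stretches shared with other transcripts made up 15.7% for Txnip, 21.0% for Sod2 and 10.3% for Gss, whose counts are uncertain to that extent.

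**Figure D5:**
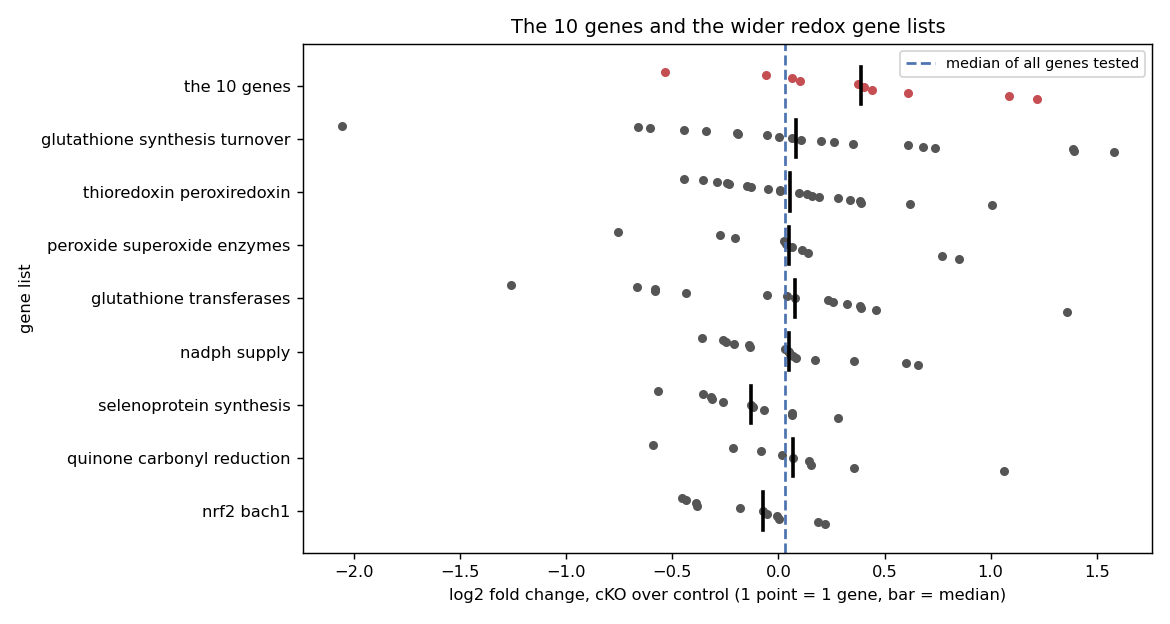
edgeR log2 fold change, cKO over control (x axis), of each tested gene in the 10 genes (red), the wider redox lists and the NRF2 and BACH1 regulators (grey), with list medians as black bars and the median of all genes tested as a dashed line. The median of the 10 genes is 0.39, and the medians of the other lists lie between −0.13 and 0.08.

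Of 11 regulators of NRF2 and BACH1 activity, 3 had positive and 8 negative log2 fold changes, and 3 had separate groups on TMM-scaled CPM (Keap1 and Bach2 higher, Mafk lower), a pattern that 8.33% of all genes showed upward and 7.64% downward. Bach1 itself measured 45.8 and 21.6 CPM in control 1 and control 6, with cKO 2 at 29.98 and cKO 5 at 35.4 CPM, and a count over the whole gene does not check a deletion of some exons, so each direction for cKO rests on the labels. Nfe2l2, which encodes NRF2, ran at 252 and 326 CPM across the controls, beside 128 CPM (cKO 2) and 299 CPM (cKO 5). Keap1, the adaptor that sends NRF2 to degradation, had 41.1 and 40.3 CPM against 55.5 and 44.96 CPM, both cKO values being higher (log2 fold change 0.22 ± 0.29), and Bach2 had 16.8 and 17.4 CPM against 24.03 and 17.6 CPM. Mafk, a small MAF gene, was lower in both cKO libraries on TMM-scaled CPM (log2 fold change −0.44 ± 0.34), with 33.7 and 24.5 CPM against 24.8 and 20.5 CPM. The heme oxygenase gene Hmox1, a well-known BACH1 target, measured 558 and 590 CPM in control 1 and control 6, with cKO 2 at 190 and cKO 5 at 1064 CPM, low and high in the same libraries as Gclm, Gpx1 and Prdx1.

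Likeness to other genes was measured as the root mean square difference of log2 deviations over the 4 libraries, among about 7313 genes with a mean of at least 20 CPM. The nearest gene to Gclc was B3gnt7 (0.0104), to Gpx1 Cbfb (0.0265), to Prdx1 Rxrb (0.0365), to Gsr Txndc11 (0.0597), to Nqo1 Slc22a17 (0.0716) and to Srxn1 Brpf1 (0.0719). Gclm lay farther from every gene than these, with Bag1 nearest at 0.256, followed by Ms4a7 (0.291) and Rhob (0.300). Bag1, a chaperone cofactor gene, stood at 18.5 CPM for control 1, 49.6 for control 6, 15.9 for cKO 2 and 87.7 for cKO 5. Ms4a7, which is on the list of border macrophage markers, ran at 11.8 and 20.5 CPM across the controls, beside 10.98 CPM (cKO 2) and 38.3 CPM (cKO 5).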

How the data were processed

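Per the submitters' processing notes, Bowtie2 2.2.3, TopHat2 2.0.12 and HTSeq 0.6.0 were used with mm9, without stated roles. Positions in the deposited tables equalled GRCm38 for 90.3% of 21922 genes, and coordinates here are those of GRCm38. The deposit holds 4 tables, in which the authors give raw read counts per gene and CPM. In the deposited CPM a count of 0 was given 0.5 reads. They also hold the authors' fold ratio, its log2 and a p-value from a test not given in the sources used here; the deposited adjusted values lie below the p-value for 66.6% to 80.0% of genes. Strandedness and read length are not given, so reads of overlapping antisense genes cannot be told apart.

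Counts were joined by Ensembl ID, giving 18723 genes with a count in all 4 libraries. Groups came from the sample titles. The genotypes were compared with edgeR 4.0.16 in R 4.3.3 (quasi-likelihood test, TMM, filterByExpr with a minimum count of 10, Benjamini-Hochberg adjustment over 15951 genes, 2 residual degrees of freedom). The tests are two-sided, and SEs were derived from each test's p and log2 fold change. An exact permutation of 2 against 2 libraries cannot go below 0.333. The script was tested on simulated data, and how many set changes it recovered is not given here. With 2 libraries per group, a lack of calls does not show a lack of change. Alternatives were DESeq2 1.42.0, voom of limma 3.58.1, other scalings, no filter, leaving out each library and, added after seeing the data, a term for Xist or Ddx3y reads. The members, lists, tests and alternatives were chosen with earlier results of these data known. Besides the 10 genes, the rule named a fixed set of pathway genes and up to 4 per list with the largest change at 5 CPM or more, of which the text gives a part. Where the report says that a value is above or below another without naming a scale, it is CPM divided by library totals only.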

Additional observations from a re-analysis of the deposited data

How the results depend on the processing

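No paired analysis was possible because of the labels' numbers, which are 1 and 6 for control and 2 and 5 for cKO, so the groups share none. A fit chosen after seeing the data added a term for libraries read for Xist (control 1, cKO 5) or Ddx3y (control 6, cKO 2), with 1 residual degree of freedom. It called 0 genes, with 1 at an unadjusted p under 0.05, and gave −0.077 for Prdx1 and −0.1 for Gpx1, with 6 of the 10 positive and a median of 0.269. The counts of genes past the threshold were 0 for the 10 genes, the wider pathway and all genes under each alternative run in edgeR, DESeq2 and limma-voom; the smallest adjusted p lay between 0.4601 (without cKO 5) and 1. Before adjustment, 1 to 1807 genes had a p under 0.05, the most without cKO 5, and of the 10 genes Gclm alone did, without cKO 2 (adjusted p 0.9985). Of 110 log2 fold changes of the 10 genes under alternatives, 93 kept their sign and 17 changed it, and Slc7a11, Txnrd1 and Nqo1 kept theirs in all. On TMM-scaled CPM these genes had both cKO libraries above both controls, so leaving out 1 library could hardly turn their sign. Scaled on the microglial markers, Gclc was 0.208 and Gpx4 1.003; on library totals only, Gpx4 was 0.002. In limma-voom, Prdx1 was −0.071 and Gpx1 −0.119. The cause of these changes was not tested.

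Leaving out 1 library at a time gave −1.658 to 0.116 for Gclc, −0.992 to 1.933 for Gclm, −0.502 to 1.033 for Gsr and −0.798 to 0.622 for Prdx1. The range was −0.465 to 0.963 for Srxn1, −1.012 to 0.747 for Gpx1, −0.321 to 0.186 for Gpx4, 0.31 to 0.883 for Txnrd1, 0.346 to 0.394 for Slc7a11 and 0.615 to 1.642 for Nqo1. Without cKO 5, 3 of the 10 were positive and their median was −0.484; without cKO 2 all 10 were, with a median of 0.685. In such a fit the lone library of a group is assumed to vary like the others. The number of the 10 genes with separated groups was 3 with TMM, DESeq2 size factors or library totals, and 6 scaled on the microglial markers. Depth limits Slc7a11 and Nqo1, which had 15 to 68 reads per library.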

Other observations

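The annotation text beside these genes in the deposited tables does not always match the symbol. Gclm carries a KEGG description of cyclophilin A and Slc7a11 a protein description of a tubulin alpha chain, and of the 10 genes 5 carry the term glutathione metabolic process (Gclc, Gsr, Txnrd1, Gpx1 and Gpx4). Of 45 genes with that term, 34 were tested, 26 had positive and 8 negative log2 fold changes, and the median was 0.24, where 52.8% of all genes tested were positive with a median of 0.03. Both cKO libraries were above both controls for 8 of them and below for 3, beside 8.33% and 7.64% of all genes, and none passed the threshold in edgeR. The term therefore leaves out Gclm, the gene with the widest range among the 10.

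Sod1 was counted at 1.74 to 7.05 CPM although it encodes a cytosolic enzyme that most cells make in quantity. Of the 50-base stretches in its annotated transcripts, 3.42% occur in another gene's transcripts. Gpx1 was also counted at a modest 11.4 to 30.3 CPM, and 0 of its 1504 stretches occur in another annotated transcript. The reason for these levels was not tested.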
